A study of Saccharomyces cerevisiae with 6 samples.

Results

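The 60S assembly factors are the proteins that build the large subunit of the yeast ribosome without being part of the finished particle. Their transcripts were compared between budding yeast (Saccharomyces cerevisiae) whose histone H4 carries alanine in place of lysine 91 (K91A) and yeast with unchanged histone H4 (WT). The members are 57 genes named by symbol, matched through the gene annotation of the array. Of these, 56 matched directly and MDN1 matched through REA1, its other name. They have 59 probe sets among the 9275 of the array that are not controls, and 54 of the 57 genes are among the 5013 protein-coding genes tested. There are 3 arrays for each strain, and no other allele, agent or strain background is given in the sources used here. Per the labels, cells of both strains grew in YPD, a rich glucose medium, to mid-log phase, and total RNA was measured.

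The arrays are written as K91A 1 to K91A 3 and WT 1 to WT 3. The title of K91A 3 says K91A, whereas its description says WT. It was grouped by its title, since WT replicate 3 is already the label of another array in both places. Across all probe sets tested its log2 levels had a Pearson's r of 0.845 with K91A 1, 0.764 with K91A 2 and 0.644 to 0.657 with the WT arrays. The labels do not say whether replicates were separate cultures, and p-values then reflect the spread between these arrays alone, which may be technical.

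Ribosomal RNA for the large subunit is transcribed in the nucleolus and folded there with the help of helicases, scaffold proteins and relatives of ribosomal proteins. The particle then moves into the nucleoplasm, where GTPases and a very large ATPase remodel it, and leaves through the nuclear pore with export adaptors. In the cytoplasm the last factors are stripped off and return to the nucleus. Genes for this pathway are known in yeast to be transcribed together and to follow growth rate.

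The members were put into 4 stages by where a factor first joins the particle, except that export factors were grouped with cytoplasmic ones. There are 12 early nucleolar, 31 later nucleolar, 9 nuclear, and 5 export and cytoplasmic factors. A log2 level here is log2(intensity + 16) after quantile normalization, and a difference is the mean of K91A minus the mean of WT on that scale. Differences were tested with limma across 6931 probe sets, with Benjamini-Hochberg adjustment over all of them and a threshold of 0.05. Of the members, 54 passed the filter on dim probe sets, and SSF1, SSF2 and MAK16 did not.

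Median intensity as deposited was 745 to 2564 on the K91A arrays, with the lowest on K91A 3, and 1828 to 3117 on the WT arrays. Without normalization the median difference of all probe sets tested was -0.82, and with it -0.07, so every direction below is relative to the bulk of transcripts. The ratio of 5' to 3' signal of actin, a sign of RNA integrity and labelling, was 0.861 ± 0.017 in K91A and 0.196 ± 0.146 in WT (SD over 3 arrays; a two-sided exact permutation test gave p = 0.1, the smallest possible). The same ratio of the control transcript SRB4 was 0.319 ± 0.147 in K91A and 0.126 ± 0.044 in WT, and the groups did not overlap. That of SPT15 was 0.481 ± 0.187 in K91A and 0.223 ± 0.194 in WT. Its groups overlapped, with 0.302 on K91A 3 and 0.445 on WT 3. The actin and SRB4 ratios therefore moved with the groups that all results compare, while the SPT15 ratio did not separate them. The part of these ratios in the results was not tested. The highest r between any pair of arrays, 0.976, was that of WT 1 with WT 2. No detection calls came with the values, and precision is limited by there being 3 arrays a group.

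Transcripts of 33 of the 54 factors tested (61.1%) were lower in K91A and that of 1, MDN1, was higher, while 20 did not pass the limma threshold. Among all 5013 protein-coding genes tested, 14.4% were lower and 15.1% higher. The median difference of the factors was -0.99, with quartiles of -1.21 and -0.59, beside -0.09 for all protein-coding genes. The sign was negative for 50 of the 54. All K91A arrays lay below all WT arrays for 41 factors, all lay above for 1 and the groups overlapped for 12, where 28.9% of protein-coding genes had all K91A arrays below and 23.8% all above. In a culture, fewer cells with a transcript and less of it per cell cannot be told apart.

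The size of that count depended on the WT arrays. Without WT 1, WT 2 or WT 3, limma called 15 of 54, 13 of 54 and 20 of 53 factors lower, beside 4.49%, 3.90% and 9.17% of protein-coding genes. Without K91A 1, K91A 2 or K91A 3, it called 26, 35 and 32 of 55, beside 10.3%, 16.3% and 13.7% of protein-coding genes. Of the 34 calls in either direction, 11 held with each array left out, and 19, 21 and 13 were lost without WT 1, WT 2 and WT 3. CGR1 was not tested without WT 3, where it fell under the filter, and held without each of the other arrays. With K91A 3 counted as WT, limma called 0 of 54 factors and 0 of 6931 probe sets. An unadjusted p under 0.05 was found for 16 of the 54, beside 1056 of the 6931 probe sets. The difference was negative for 51 of the 54, and the share of negative differences over all genes was not counted in this setting.

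**Figure D1:**
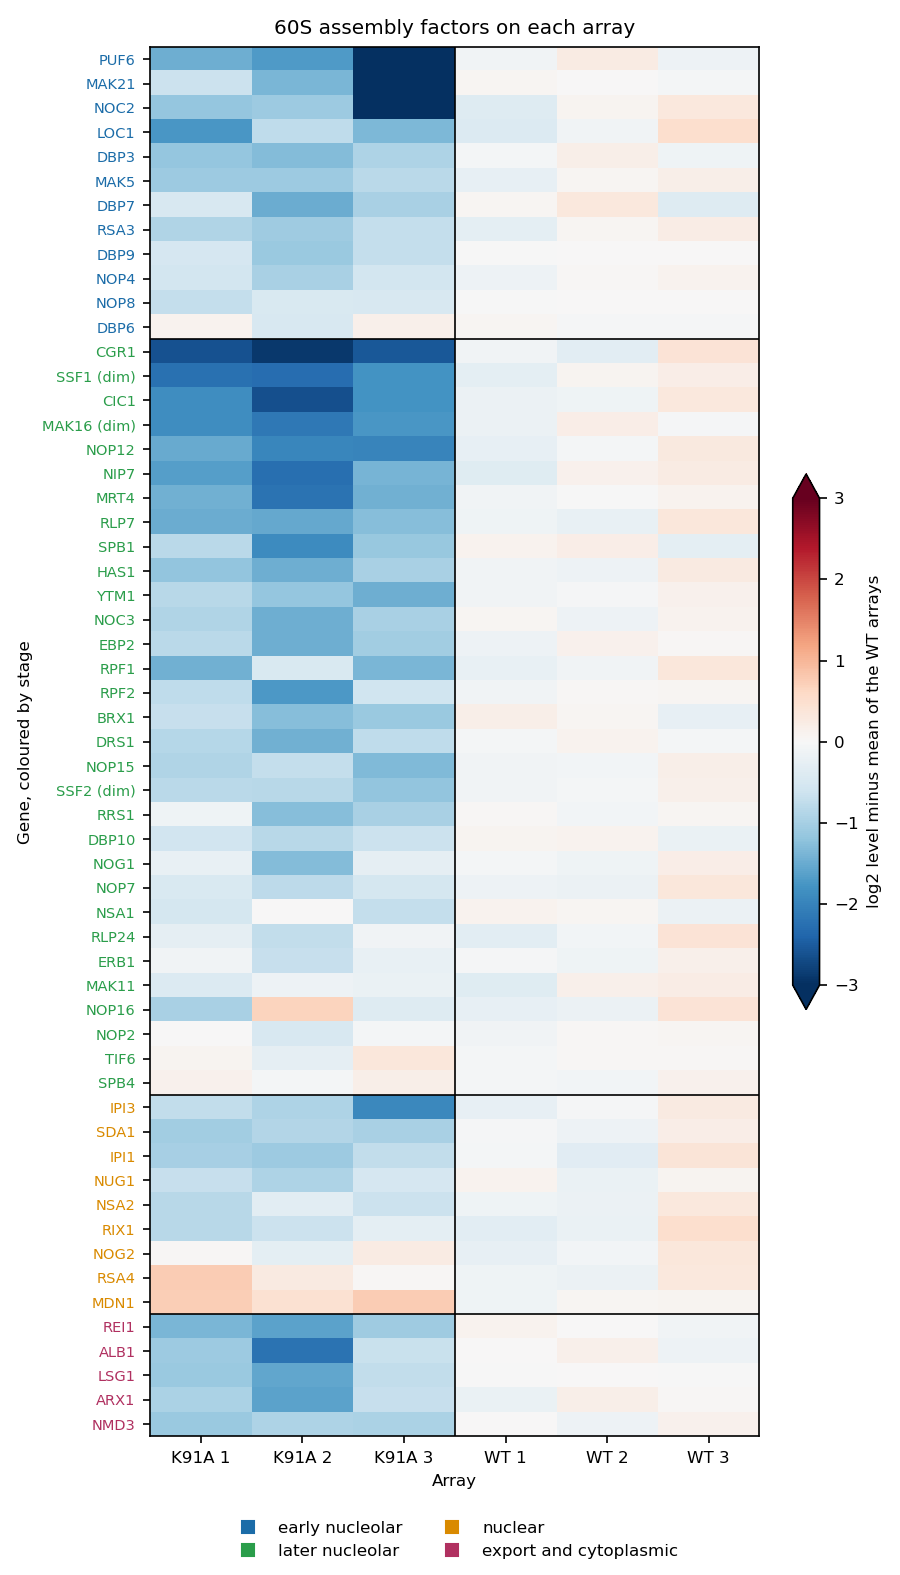
Log2 level of each of the 57 factors (rows, coloured by stage) on each array (columns), minus the mean of the WT arrays; the colour scale ends at -3 and 3, and "dim" marks the 3 factors left out of the test. Most rows are lower on all 3 K91A arrays, and PUF6, MAK21 and NOC2 are far lower on K91A 3 than on the other two.

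By array, the median level of the factors minus their WT mean was -0.83 on K91A 1, -1.09 on K91A 2 and -0.76 on K91A 3. On the WT arrays it was -0.10 to 0.13. K91A 2 was the lowest K91A array for 35 factors, K91A 1 for 10 and K91A 3 for 9. Over all protein-coding genes the same median was -0.01, -0.12 and -0.05 on K91A 1, 2 and 3, so K91A 2 was lowest there too.

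Among the 12 early nucleolar factors, which join the first large-subunit particles, 7 were lower and 0 higher, with a median difference of -0.99. Without WT 1, WT 2 or WT 3 the count of lower factors was 3, 1 and 2, and without each K91A array it was 5 to 8. All 12 had a negative difference, and DBP6 was the one whose groups overlapped. The 3 largest differences belonged to PUF6, MAK21 and NOC2, and all 3 differences were smaller without K91A 3.

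PUF6, a Puf-family RNA-binding protein that also represses translation of ASH1 mRNA, had log2 levels of 11.15, 10.91 and 8.45 on K91A 1, 2 and 3 and of 12.51, 12.85 and 12.46 on the WT arrays. Every K91A array lay below every WT array, with K91A 3 more than 2 below its nearest K91A neighbour. The difference of PUF6 was -2.44 (SE 0.68, 95% interval -4.04 to -0.84, limma adjusted p = 0.0348). Without K91A 3 it was -1.54 (adjusted p = 0.00743), and without WT 1, WT 2 or WT 3 the adjusted p was 0.0896, 0.103 and 0.0896.

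MAK21, also called Noc1, and NOC2 form a pair that binds early particles. MAK21 had log2 levels of 12.80, 12.07 and 8.52 on the K91A arrays and of 13.51, 13.45 and 13.38 on the WT arrays. NOC2 had 10.14, 10.21 and 7.38 against 10.90, 11.37 and 11.61. For both genes the groups did not overlap and K91A 3 stood far below the others. Neither passed the limma threshold with all 6 arrays, at -2.32 (SE 1.01, adjusted p = 0.122) for MAK21 and -2.05 (SE 0.74, adjusted p = 0.0763) for NOC2. Without K91A 3 both differences were smaller and past the threshold, at -0.99 (adjusted p = 0.0353) and -1.09 (adjusted p = 0.0237). A K91A 3 level more than 1 below the next K91A array was found for 4 of the 54 factors (7.41%), PUF6, MAK21, NOC2 and IPI3, and for 5.29% of protein-coding genes. On K91A 3 the deposited intensities of PUF6, MAK21 and NOC2 were 105, 111 and 42, on an array with a median of 745. The K91A mean of NOC2 was 9.24, and it passed the filter through its WT mean of 11.29. The sizes of the differences of PUF6, MAK21 and NOC2 are therefore uncertain.

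The other early factors had a smaller spread between K91A arrays. LOC1, which acts with PUF6 on ASH1 mRNA and on large-subunit particles, was lower by limma, with a difference of -1.28 (adjusted p = 0.0283). DBP3, a DEAD-box helicase, was lower at -1.13 (adjusted p = 0.00731). The helicases MAK5 and DBP9, the RNA-binding protein NOP4 and RSA3, a small early factor, were lower, with differences of -0.99 to -0.69 and limma adjusted p-values of 0.0154 to 0.0391. The highest adjusted p of these 4 with 1 array left out was 0.0742 for MAK5, 0.113 for DBP9, 0.133 for NOP4 and 0.0835 for RSA3. DBP7 at -0.98 and NOP8 at -0.55 narrowly missed the threshold (adjusted p = 0.0523 and 0.0509), and DBP6 was at -0.08 (adjusted p = 0.801). LOC1 lost its call without any array other than K91A 2, with adjusted p-values of 0.0514 to 0.0816, while DBP3 kept it without each of the 6.

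Among the 28 later nucleolar factors tested, 17 were lower and 0 higher, with a median difference of -1.02 and a range of -2.68 to 0.09. Without WT 1, WT 2 or WT 3 the count was 9, 9 and 14, and without each K91A array 16 to 19.

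CGR1, a small basic protein needed to process the large-subunit precursor RNA, had log2 levels of 8.68, 8.39 and 8.76 on the K91A arrays and of 11.19, 10.97 and 11.70 on the WT arrays. The groups lay more than 2 apart. The difference of -2.68 (SE 0.27, 95% interval -3.31 to -2.05, limma adjusted p = 0.00185) rests on dim K91A levels. Their mean of 8.61 was close to that of MAK16 (8.59), which was left out as dim, and CGR1 passed the filter through its WT mean of 11.29, so the size of the difference is uncertain.

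CIC1 binds the internal spacer of the precursor RNA, and NOP12 helps a mature part of that RNA to fold. CIC1 had log2 levels of 10.40, 9.62 and 10.46 against 12.08, 12.12 and 12.57, a difference of -2.10 (SE 0.28, limma adjusted p = 0.00366). NOP12, with RNA recognition motifs, had 9.59, 9.13 and 9.11 against 10.86, 11.05 and 11.38, a difference of -1.82 (SE 0.25, adjusted p = 0.00366). In both genes the highest K91A array was more than 1 below the lowest WT array. NOP12 was dim on the K91A arrays, with a mean of 9.28, and passed the filter through its WT mean of 11.10. The size of its difference is therefore uncertain, as for CGR1. A fit with no filter uses the same levels of NOP12 and gave the same difference (limma adjusted p = 0.00386), so it cannot settle that size.

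NIP7, a conserved nucleolar protein that acts in precursor RNA processing, had log2 levels of 10.20, 9.59 and 10.45 against 11.48, 11.97 and 12.08. Its difference was -1.76 (SE 0.29, limma adjusted p = 0.00645). MRT4, a relative of ribosomal stalk protein P0 that holds its place on the particle, had 11.91, 11.15 and 11.93 against 13.26, 13.35 and 13.47. Its difference was -1.70 (SE 0.26, adjusted p = 0.0049). K91A 2 was the lowest array for both, and neither group overlapped the other.

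**Figure D2:**
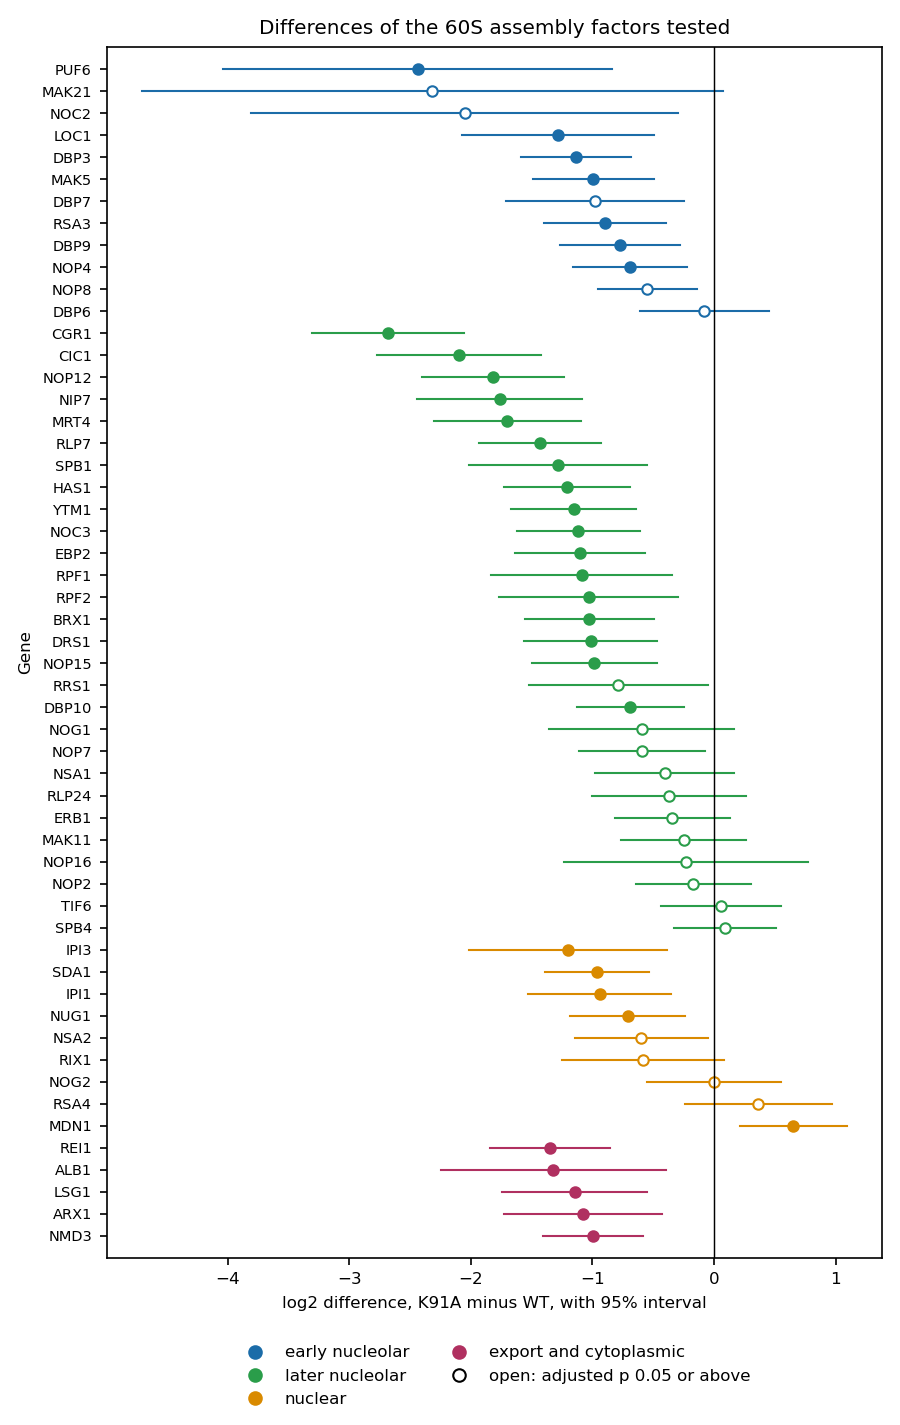
Difference (log2, K91A minus WT) of each of the 54 factors tested, with its 95% interval, coloured by stage; filled points passed an adjusted p of 0.05. CGR1 is lowest at -2.68, MDN1 is highest at 0.65, and MAK21 and NOC2 have wide intervals and open points.

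Members of one complex did not all pass together. Of the trimer of NOP7, ERB1 and YTM1, a scaffold of the nucleolar particle, YTM1 was lower at -1.15 (limma adjusted p = 0.0106), while NOP7 stood at -0.59 (adjusted p = 0.0798) and ERB1 at -0.34 (adjusted p = 0.228). RPF2, a Brix-domain protein, was lower at -1.03 (adjusted p = 0.0447), and RRS1, its partner in bringing in the 5S RNA particle, was at -0.79 (adjusted p = 0.0959). Whether partners differed from each other was not tested. Of the relatives of ribosomal proteins, MRT4 and RLP7 were lower, RLP7 at -1.43 (adjusted p = 0.00473), and RLP24 stood at -0.37 (adjusted p = 0.322).

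All 3 Brix-domain proteins tested, RPF1, RPF2 and BRX1, were lower, with differences of -1.09 to -1.03. Across the stages 6 of 9 DEAD-box helicases were lower, with a median of -0.98. HAS1 was the furthest at -1.21 (limma adjusted p = 0.00919), and SPB4 at 0.09 (adjusted p = 0.724) and DBP6 overlapped between groups. Of the 2 RNA methyltransferases, SPB1 was lower at -1.28 (adjusted p = 0.0224) and NOP2 stood at -0.17 (adjusted p = 0.541). With 1 array left out, the highest adjusted p was 0.115 for RPF1, 0.128 for RPF2, 0.0726 for BRX1 and 0.0863 for SPB1, and RPF1 missed the threshold without K91A 3 (adjusted p = 0.0848).

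The other later nucleolar factors that were lower were NOC3, which works with NOC2, EBP2, DRS1, NOP15 and DBP10, at -1.12 to -0.69 with limma adjusted p-values of 0.0111 to 0.0313. Each lost its call without at least 1 WT array, with a highest adjusted p of 0.0512 for NOC3 and 0.128 for DBP10. Not past the threshold were NOG1, a GTPase, at -0.60, NSA1 at -0.41, MAK11 at -0.25 and NOP16 at -0.23, with adjusted p-values of 0.198 to 0.702. The levels of NOP16 were scattered, from 10.41 to 12.06 on the K91A arrays. TIF6, which keeps the large subunit from joining the small one too soon, had log2 levels of 12.42, 12.09 and 12.69 against 12.28, 12.37 and 12.38. SPB4 had 12.12, 11.92 and 12.17 against 11.93, 11.90 and 12.11. These 2 genes had the only positive differences of the stage, 0.06 for TIF6 (adjusted p = 0.847) and 0.09 for SPB4, and in both the groups overlapped.

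SSF1 and SSF2 are near-identical Brix-domain proteins of the nucleolar particle, and MAK16 is a partner of RPF1. All 3 were left out of the test as dim, so their values come from a fit with no such filter. SSF1 had log2 levels of 8.19, 8.15 and 8.65 against 10.14, 10.53 and 10.65, a difference of -2.11 (SE 0.25, limma adjusted p = 0.00294). MAK16 stood at -1.91 (SE 0.23, adjusted p = 0.00278). Of SSF2, the brighter probe set had 8.78, 8.76 and 8.40 against 9.49, 9.54 and 9.75, at -0.95 (adjusted p = 0.0218), and the other had 7.89, 7.48 and 8.18 against 9.05, 9.26 and 9.14, at -1.30 (adjusted p = 0.0114). The identifier of the brighter SSF2 probe set marks probes shared within a family and that of the other a set short of unique probes, so signal of SSF1 and SSF2 may not be separate there. With no filter 36 of the 57 factors were lower, beside 13.4% of protein-coding genes.

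Of the 9 nuclear factors, 4 were lower and 1 higher, with a median of -0.60. Without WT 1, WT 2 or WT 3 the count of lower factors was 1 each time, and without K91A 1 it was 2. The Rix1 complex, which helps remove the spacer RNA, had IPI3 and IPI1 lower and RIX1 at -0.59 (limma adjusted p = 0.153).

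IPI3 had log2 levels of 10.45, 10.26 and 9.26 against 10.95, 11.16 and 11.45, with K91A 3 lowest. Its difference was -1.20 (SE 0.34, limma adjusted p = 0.0382), and -0.82 without K91A 3 (adjusted p = 0.039). SDA1, needed for export of the particle, had 11.13, 11.29 and 11.19 against 12.12, 12.01 and 12.37, a difference of -0.96 (SE 0.18, adjusted p = 0.0106). IPI1 had 9.85, 9.75 and 10.10 against 10.79, 10.51 and 11.23, a difference of -0.94 (SE 0.25, adjusted p = 0.0291). The groups did not overlap for any of the 3 genes. SDA1 kept its call without each array, whereas IPI3 lost it without each WT array (adjusted p = 0.0813 to 0.112) and IPI1 without each array other than K91A 3 (0.0534 to 0.0929).

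The GTPase NUG1 was lower at -0.71 (limma adjusted p = 0.0365, and up to 0.128 with 1 array left out), and NSA2, a protein of the nuclear particle, was at -0.60 (adjusted p = 0.0898). NOG2, another GTPase, has 2 probe sets and neither passed. The brighter had log2 levels of 12.88, 12.54 and 13.08 against 12.59, 12.74 and 13.17, and the other had 10.68, 10.84 and 10.66 against 10.06, 10.15 and 12.06. WT 3 stood far above the other WT arrays on the dimmer one.

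MDN1 encodes a giant AAA ATPase that pulls on RSA4 to strip factors from the nuclear particle. It had log2 levels of 12.60, 12.30 and 12.61 on the K91A arrays and of 11.73, 11.90 and 11.93 on the WT arrays. All K91A arrays were above all WT arrays, the reverse of most factors. The difference was 0.65 (SE 0.19, 95% interval 0.22 to 1.09, limma adjusted p = 0.0371), or 1.57-fold. RSA4 had 11.67, 11.18 and 10.95 against 10.78, 10.72 and 11.21, a difference of 0.36 (adjusted p = 0.31), and its groups overlapped.

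The call of MDN1 was lost without any array other than K91A 2, with adjusted p-values of 0.0602 to 0.133. MDN1 is also the longest member, at 14733 nt by RefSeq (assembly R64), and differences moved with gene length across the array. Spearman's rho of difference with length was 0.215 over the protein-coding genes, 0.194 over the 54 factors and 0.147 without MDN1, given as a description since genes share the arrays. With each array's trend on length removed, the difference of MDN1 was 0.06 (adjusted p = 0.853). On the values as deposited it was -0.16 (adjusted p = 0.889), where the median of all probe sets tested was -0.82, so it lay above the bulk on both scales.

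The lower levels of the other factors were found at every length. Of members under 1000 nt, 10 of 15 were lower, beside 19.9% of protein-coding genes of that length, and the medians were -1.03 and -0.25. From 1000 to 2000 nt, 17 of 27 were lower, beside 12.0%. Over 2000 nt, 6 of 12 were lower, beside 9.73%, and the medians were -0.97 and 0.18. With the length trend removed, 33 of 54 factors were lower, beside 14.9% of protein-coding genes, with a median of -0.97.

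All 5 export and cytoplasmic factors were lower, within a narrow range of -1.35 to -0.99 and with a median of -1.15. Without WT 1, WT 2 or WT 3 the count was 2, 2 and 3, and without K91A 1 it was 3. REI1, which releases ARX1 and ALB1 in the cytoplasm, had log2 levels of 10.04, 9.81 and 10.37 against 11.52, 11.43 and 11.32. Its groups lay almost 1 apart, and the difference was -1.35 (SE 0.21, limma adjusted p = 0.00543). The identifier of its probe set marks probes that may be shared with other genes.

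ARX1, an export factor that covers the tunnel exit, and ALB1, its partner, were lower together. ALB1 had log2 levels of 10.08, 8.95 and 10.49 against 11.18, 11.31 and 11.00, a difference of -1.32 (SE 0.39, limma adjusted p = 0.0425). ARX1 had 10.49, 9.82 and 10.74 against 11.23, 11.60 and 11.46, a difference of -1.08 (SE 0.27, adjusted p = 0.0261). In both genes K91A 2 lay well below the other K91A arrays. Neither passed without K91A 1 or without any WT array, with adjusted p-values of 0.0694 to 0.129 for ALB1 and 0.0522 to 0.0995 for ARX1.

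LSG1, the GTPase that frees NMD3 from the cytoplasmic particle, had log2 levels of 9.75, 9.31 and 10.13 against 10.87, 10.90 and 10.88. Its difference was -1.15 (SE 0.25, limma adjusted p = 0.0168). NMD3, the adaptor that links the particle to the exportin, had 11.80, 11.97 and 11.95 against 12.92, 12.76 and 13.03, and its difference was -0.99 (SE 0.18, adjusted p = 0.00833). In neither gene did the groups overlap. LSG1 lost its call without WT 1 or WT 2 (adjusted p = 0.0663 and 0.0707), and NMD3 kept it without each array.

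**Figure D3:**
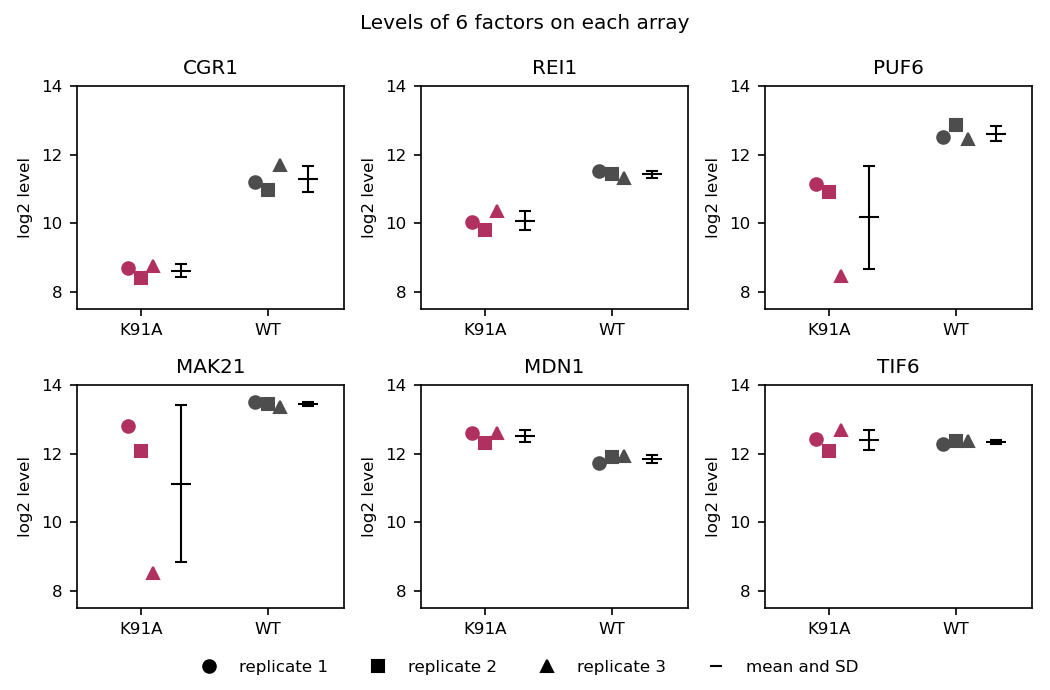
Log2 level of 6 factors on each array, with the mean and SD of each group (n = 3) beside the points; symbols mark the replicate number. CGR1, REI1, PUF6 and MAK21 are lower on all K91A arrays, PUF6 and MAK21 furthest on K91A 3, MDN1 is higher on all K91A arrays and TIF6 overlaps.

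Side by side, 7 of 12 early nucleolar, 17 of 28 later nucleolar, 4 of 9 nuclear and 5 of 5 export and cytoplasmic factors were lower. In a second placement, TIF6, MRT4, NOG1 and RLP24 were counted as export and cytoplasmic, by where they leave. NSA2 and NUG1 were counted there as later nucleolar, which cannot be a place of release for factors that join in the nucleus. The counts were then 7 of 12, 17 of 26, 3 of 7 and 6 of 9. The difference between stages was not tested, and moving 4 factors took the last stage from 100% to 66.7%.

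Other genes of ribosome production were read in the same fit. Of 31 further 60S assembly genes tested, 14 were lower and 1 higher, with a median difference of -0.79. SYO1, a chaperone that imports ribosomal proteins, stood at -1.62 (limma adjusted p = 0.00374), RRP1 at -1.51 (adjusted p = 0.00401) and NOP13 at -1.80 (adjusted p = 0.00491). The higher one was AFG2, the ATPase that releases RLP24, at 0.93 (adjusted p = 0.0474), named after its value was seen. Of 62 assembly genes of the 40S subunit, 26 were lower and 0 higher, with a median of -0.78. The lower genes numbered 9, 9 and 10 of the further 60S assembly genes and 8, 7 and 12 of the 40S assembly genes without WT 1, WT 2 and WT 3. Among protein-coding genes, 14.4% were lower and 15.1% higher with every array. Without WT 1, WT 2 and WT 3, 4.49%, 3.90% and 9.17% were lower.

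Structural genes of the same subunit had a smaller downward shift. Of 47 genes for 60S ribosomal proteins, 7 were lower (14.9%) and 0 higher, beside 14.4% and 15.1% of protein-coding genes. The median of the 47 was -0.43, and paired gene copies can share probes. The sign was negative for 45 of the 47, beside 2771 of 5013 protein-coding genes. All K91A arrays lay below all WT arrays for 22 and above for 0, beside 28.9% and 23.8% of protein-coding genes. Those called lower numbered 1, 1 and 3 without WT 1, WT 2 and WT 3. The median level of the 47 genes minus their WT mean was -0.22 on K91A 1, -0.89 on K91A 2 and -0.15 on K91A 3, so K91A 2 stood apart. These genes are short, with a median length of 766 nt. With the length trend removed, 4 of the 47 were lower (8.51%), beside 14.9% of protein-coding genes. The medians were then -0.22 and -0.06. On the values as deposited 16 of 47 ribosomal protein genes and 13 of 54 assembly factors were lower, beside 7.77% of protein-coding genes, while the medians kept their order at -1.32, -1.65 and -0.85. No test of the difference between lists was made.

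**Figure D4:**
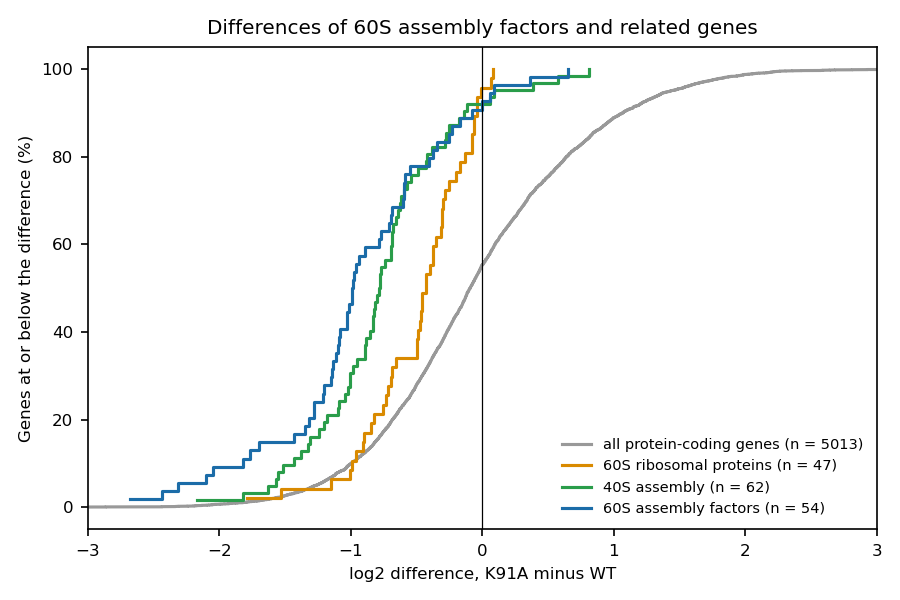
Share of genes (%) at or below each log2 difference, K91A minus WT, for the 54 assembly factors, 62 genes for 40S assembly, 47 for 60S ribosomal proteins and all 5013 protein-coding genes, drawn from -3 to 3. The curve of the assembly factors lies furthest left over most of its length, with a median of -0.99 beside -0.78, -0.43 and -0.09.

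Of 12 RNA polymerase I genes tested, whose enzyme makes the ribosomal RNA, 4 were lower and 1 higher, with a median of -0.35. Among all protein-coding genes tested, 14.4% were lower and 15.1% higher. The subunits RPA12 and RPA49 stood at -1.47 and -1.44 (limma adjusted p = 0.017 and 0.0219), and RRN3, the initiation factor, at 0.82 (adjusted p = 0.0241). Of 12 regulators of ribosomal genes, 2 were higher and 1 lower (8.33%), so these counts were near or under the shares of all protein-coding genes. SCH9, a kinase that promotes ribosome production, was higher at 1.01 (adjusted p = 0.0086), as was STB3, which binds promoters of assembly genes and can repress them, at 0.82 (adjusted p = 0.0314), and HMO1 was lower at -0.59 (adjusted p = 0.023).

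**Figure D5:**
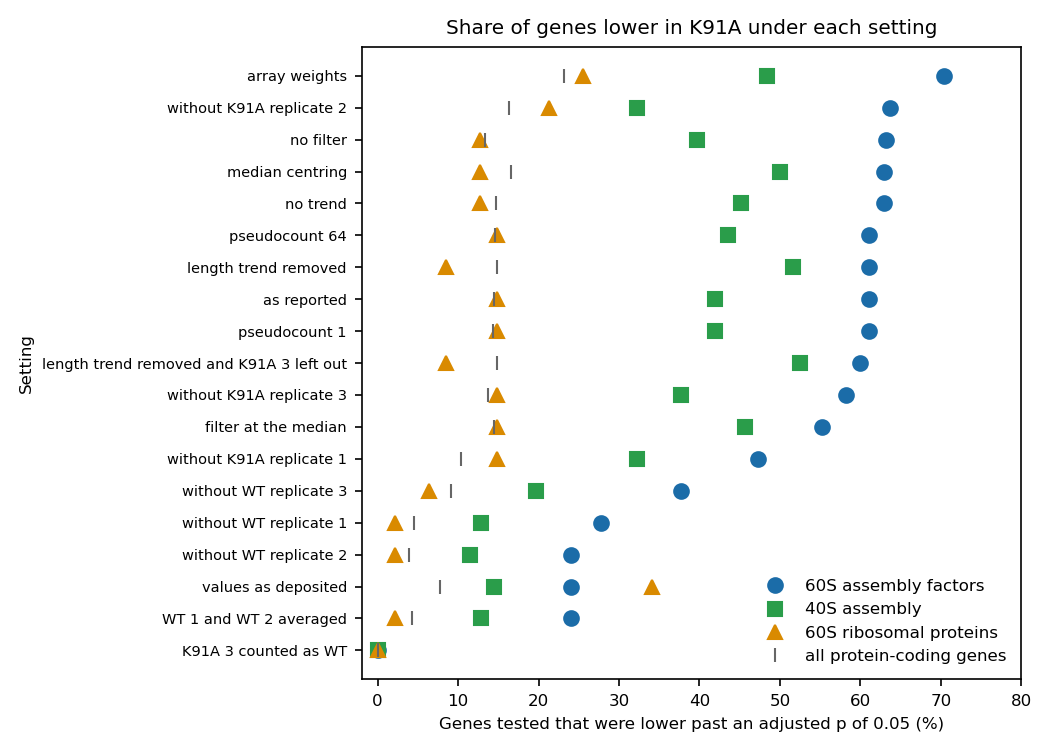
Share of genes tested (%) that were lower in K91A past an adjusted p of 0.05 under each setting drawn. Symbols mark the assembly factors, 40S assembly genes, 60S ribosomal protein genes and all protein-coding genes. The replicate block and the mean of a gene's probe sets are not drawn. The assembly factors lie above all protein-coding genes in every setting drawn other than K91A 3 counted as WT, where all are at 0, and below the ribosomal protein genes on the values as deposited.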

How the data were processed

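The values are linear intensities as deposited, 1 for each probe set of each array, from total RNA on 1-colour oligonucleotide arrays. How the authors made these intensities was not given in the sources used here. Arrays were grouped by title. The 60 control probe sets were set aside, values were turned into log2(intensity + 16) and arrays were quantile normalized. Left out were 33 probe sets that lacked 2 values in either group and the 2311 with the lowest mean (25%). This scale understates changes of dim probe sets. The difference, K91A minus WT, was tested by limma's lmFit and eBayes with a trend on the mean (version 3.58.1, R 4.3.3) and Benjamini-Hochberg adjustment over all probe sets tested, and every adjusted p comes from it. The procedure was tested on simulated arrays with known changes and independent noise of equal spread on every array. That run does not cover differences in spread or RNA quality between the groups. The brightest probe set stood for a gene. RefSeq R64 gave synonyms, biotype and length from start to stop.

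The members and lists were chosen with earlier results of these data known. Values of every array are given for members past the threshold with a difference of 1.5 or more in size, the 3 largest differences in each direction within a stage, SSF1, SSF2, NOG2, MDN1 and members that were higher; those of NMD3 and ARX1 were added after their values were seen. Of other lists, up to 3 genes with the smallest p are named. A planned comparison of promoter motifs was not run, since promoter sequence was not used here. The alternatives were a replicate block, each array left out, K91A 3 as WT, and WT 1 and WT 2 averaged. Others were pseudocounts of 1 and 64, values as deposited, median centring, other filters, no trend and array weights. The rest were a second placement into stages, the mean of a gene's probe sets and removal of the length trend. The last together with K91A 3 left out was chosen after seeing the data.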

Additional observations from a re-analysis of the deposited data

How the results depend on the processing

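The median difference of the factors was negative in every setting run, at -1.05 to -0.89 with 1 array left out. With 1 array left out, limma called 841 to 2300 probe sets, 13 to 35 factors lower and 0 to 1 higher, with 1 to 8 early nucleolar, 9 to 19 later nucleolar, 1 to 4 nuclear and 2 to 5 export and cytoplasmic factors lower. With K91A 3 counted as WT, limma called 0 probe sets (1056 at an unadjusted p under 0.05) and 0 factors in either direction and in each stage, and the median was -0.68. With WT 1 and WT 2 averaged it called 877 probe sets, 13 factors lower, 0 higher, and 1, 9, 1 and 2 by stage. In that setting 4.29% of protein-coding genes were lower. On the values as deposited it called 703 probe sets, 13 factors lower, 0 higher, and 3, 9, 0 and 1 by stage, the median was -1.65 and MDN1 stood at -0.16, on a scale where the median of all probe sets tested was -0.82 in place of -0.07. With the filter at the median, fewer genes were tested and 1372 probe sets were called. Of 38 factors, 21 were lower, 2 of them nuclear and 1 of export, beside 14.5% of protein-coding genes. The median of the 38 factors was -0.74. The count of higher factors was 0 with median centring, with the length trend removed, and with that and K91A 3 left out, and 2 with array weights. Deviations of same-numbered arrays from their group means had correlations of 0.17, -0.15 and -0.01. These values show no common pairing but cannot settle whether same-numbered arrays were handled together, which the labels do not say. The replicate block left 24 factors lower and 0 higher, with 2 nuclear and 3 of export, beside 9.24% of protein-coding genes lower. Both pseudocounts left 33 factors lower, and no trend 34, beside 14.4% to 14.7% of protein-coding genes. Of the 34 calls, 11 held with each array left out in turn (CGR1 was not tested without WT 3), and 8 (CGR1, CIC1, NOP12, RLP7, MRT4, NIP7, NMD3 and YTM1) in every setting that tested them other than K91A 3 counted as WT. The promoter motif alternative was not run. The number of arrays limits the precision, and no detection calls show which dim levels lie above background.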
